A study of Ovis aries and Bos taurus with 6 samples.

Results

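The cow milk miRNA table held 779 rows, of which 276 carried a miRBase name and 503 had only a running label such as novel30_mature. The rows described here are the 54 of those 503 unnamed rows that reached at least 10 counts in each of the 3 cow libraries. They were chosen by their counts, so their abundance is given as a description. The 3 cow libraries came from extracellular vesicles (EVs, membrane particles shed by cells) of milk of Holstein cows, female and in mid lactation, and belong to an earlier study of the same group. The 3 libraries set beside them came from milk EVs of Ordos fine wool sheep, also female and in mid lactation, so a difference of species cannot be told apart from one of breed or study. No group received a treatment per the labels, and nothing in the labels says that each cow library came from a different animal, so p-values measure the spread between these samples only. EVs were isolated with a precipitation kit, which does not sort them by the cell they came from.

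miRNAs are short RNAs that bind messenger RNAs and lower their output. Each is cut from a hairpin precursor, and the cut leaves a duplex. The strand loaded into the silencing complex is the mature strand, and the other, called the star strand, is mostly degraded, so a processed hairpin usually gives many mature reads and few star reads. miRNA discovery programs propose hairpins from stacks of small RNA reads on a genome. Proposals left without a match in the catalogue used receive a running number. In the row labels here, mature or star names the strand, and hairpins whose rows were merged are joined by ">". The label of an unnamed row states no function, and the function of the members was not determined here. The cow tables used here list no sequence and no genome position for any row, so none can be printed for the members.

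Total miRNA counts were 328527, 556489 and 387723 in the cow libraries, in the order replicate 1, 2 and 3 that is kept throughout. With the floor set at 3 counts, a row without a count may still hold up to 9.13, 5.39 and 7.74 CPM (counts scaled by the library total). PCR copies are not independent molecules, so the intervals and floors reflect counting error alone. All 27 miRNAs of a list of tissue markers had a row, and 18 of them reached 10 counts in every library. Having a row says nothing of the source, since 33 of the 276 named rows had no count in any library. Of the 12 miRNAs listed for mammary epithelium, not all of them particular to it, 8 passed. The 4 that did not were all of the epithelial miR-200 and miR-141 family, with 92, 14 and 5 counts for miR-200a, 0, 1 and 0 for miR-200b, 7, 2 and 17 for miR-200c and 4, 2 and 11 for miR-141. Of the 3 red cell markers all passed, at 1.53% to 2.76% of counts together, and of the 3 muscle markers none passed. The most abundant named row, miR-26a, took 12570, 32841 and 9258 counts.

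The members held most of the counts of every cow library. They took 253763, 392317 and 323315 counts in replicates 1, 2 and 3, which is 77.2%, 70.5% and 83.4% of each library, or 77.0% ± 6.45 (SD, n = 3). The 449 other unnamed rows together held 1.30%, 0.527% and 0.839%. Rows with a miRBase name held the remaining 21.5%, 29.0% and 15.8%. Replicate 2, the library of highest total, had the lowest member share and the highest share of named rows.

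**Figure D1:**
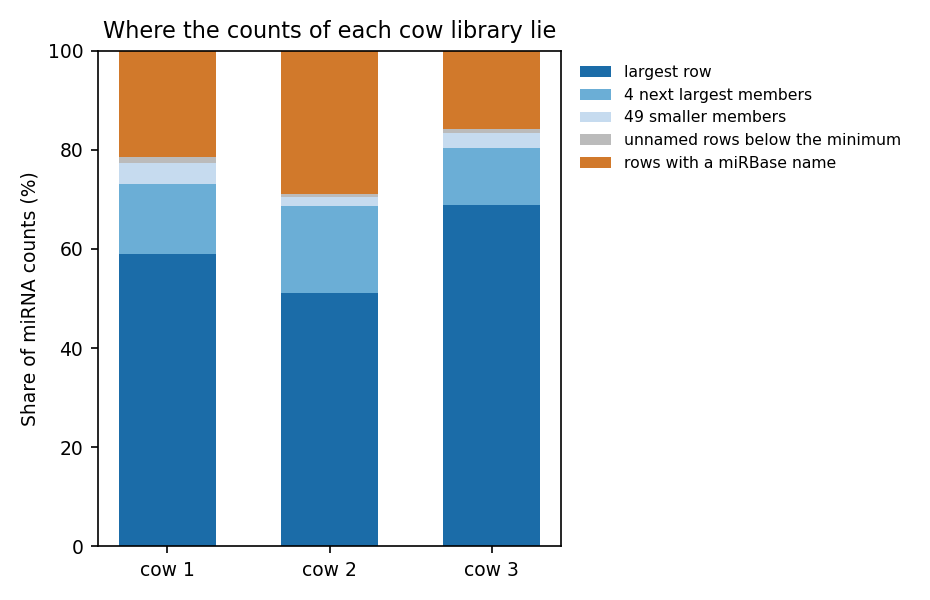
Share of miRNA counts (%, vertical axis) of each cow library, stacked by kind of row. The largest unnamed row fills 51.2% to 68.9% of each bar, and the 49 smaller members form a thin band.

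A single row accounted for most of this. The row novel237_mature>novel503_mature, which joins the mature strands of 2 hairpins, took 193448, 284690 and 267302 counts. That was 58.9% (95% Wilson interval 58.7 to 59.1), 51.2% (51.03 to 51.3) and 68.9% (68.8 to 69.1) of replicates 1, 2 and 3, with a mean of 59.7% ± 8.92 (SD, n = 3). The row was 11.6, 6.37 and 18.3 times the next largest member of its library, and 15.4, 8.67 and 28.9 times miR-26a, the top named row in each. Of the member counts alone it took 76.2%, 72.6% and 82.7%. Its coefficient of variation (CV, the SD as a percent of the mean) over the libraries was 14.9% as a share of counts and 21.6% in the deposited TPM, which stood at 14772, 22622 and 21508. In TPM the highest library was replicate 2, and as a share of counts it was the lowest, so the order of the libraries depends on the denominator.

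The constant that the deposited TPM divides by was 13095531, 12584500 and 12427900, close to equal in the 3 libraries, and its meaning is not given in any source used here. Against it the largest row took 1.48%, 2.26% and 2.15%, and all miRNA rows together 2.51%, 4.42% and 3.12%. The effective number of rows, the number of equally abundant rows that would give the same concentration (inverse Simpson index), was 1.69, 1.82 and 1.45 among the members. It was 15.3, 11.4 and 17.1 among the named rows.

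The other 53 members, called the tail here, held 60315, 107627 and 56013 counts, or 18.4%, 19.3% and 14.4% of each library. With the largest row set aside they made up 44.7%, 39.6% and 46.5% of what was left, or 0.856, 0.667 and 0.916 times the counts of the named rows. The tail was itself concentrated. On average over the libraries, 2 rows held 50% of the tail counts, 4 rows 80%, 7 rows 90% and 34 rows 99%. The 10 largest tail rows took 92.9% ± 2.44 (SD, n = 3). The effective number of rows in the tail was 5.85, 3.34 and 5.68. By mean counts, 3 tail members lay at 10000 or above, 4 between 1000 and 10000, 15 between 100 and 1000 and 31 between 10 and 100.

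**Figure D2:**
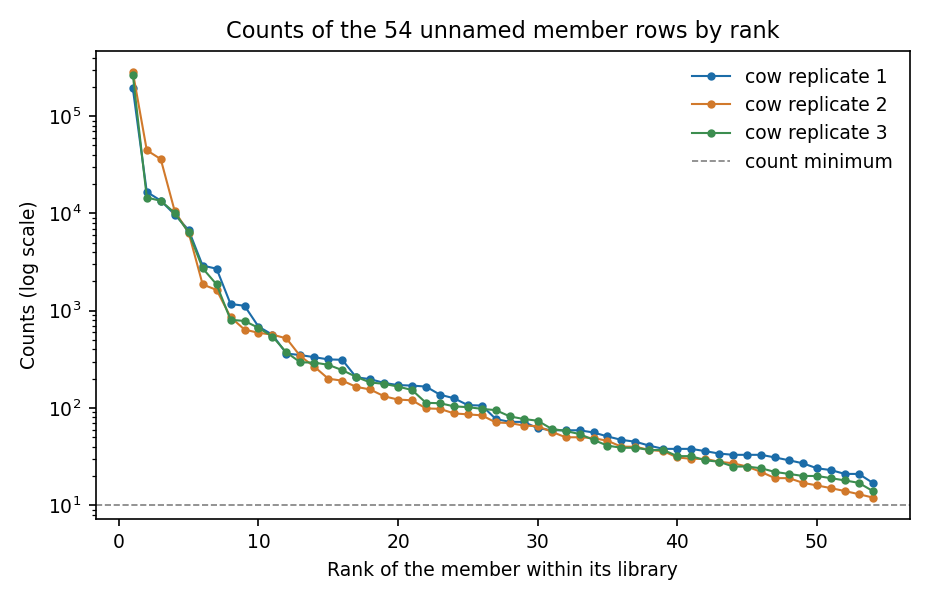
Counts of the 54 members (vertical axis, log scale) by rank within each cow library, with the count minimum of 10 as a dashed line. A drop of 6.37 to 18.3 times separates the first rank from the second, and 31 members have mean counts under 100.

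A group of 4 rows led the tail, and their order changed between libraries. novel30_mature had 9748, 44666 and 14590 counts, and was highest of the tail in replicates 2 and 3. novel135_mature had 13555, 36232 and 6393 counts. novel68_mature had 16671, 6332 and 13491 counts, and was highest of the tail in replicate 1. These values show replicate 2 at the top for the first pair of rows and at the bottom for novel68_mature, whether taken as counts or as shares of the counts outside the largest row. Those shares were 7.22%, 16.4% and 12.1% for novel30_mature. They were 10.03%, 13.3% and 5.31% for novel135_mature and 12.3%, 2.33% and 11.2% for novel68_mature. The fourth row, novel213_mature, had 6751, 10573 and 10150 counts and took 4.998%, 3.89% and 8.43%. These 4 rows and the largest kept the first 5 ranks among members in every library, and only the largest kept the same rank. Set among named rows by mean share, unnamed rows took 3 of the first 5 places outside the largest row, 4 of the first 10 and 14 of the first 50.

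**Figure D3:**
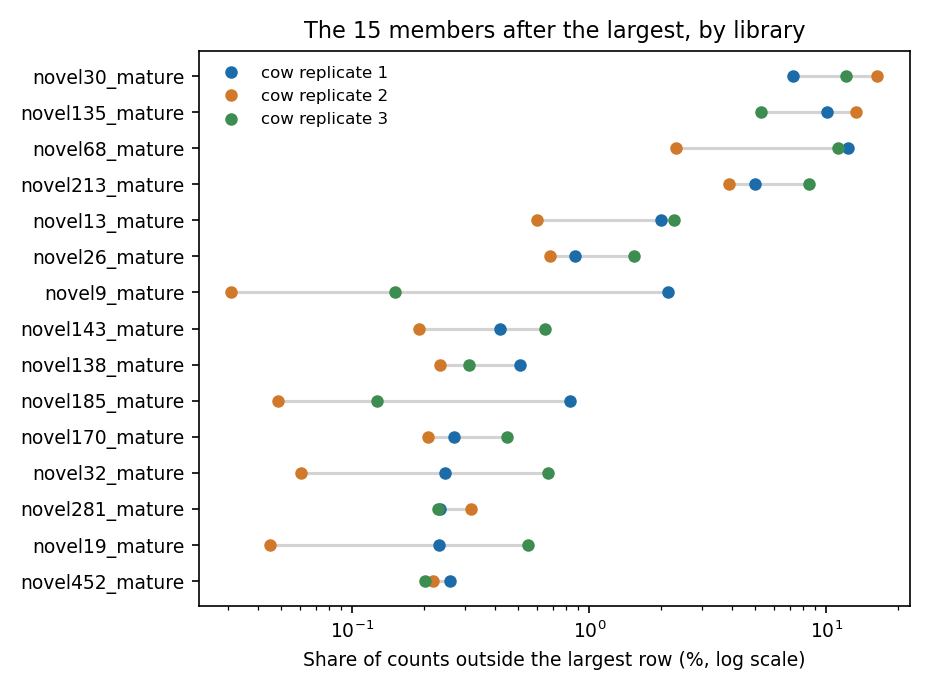
Share of the counts outside the largest row (%, log scale) of the 15 members that follow it, 1 point per cow library and a grey line over their range. Replicate 2 is the lowest point in 11 of the 15 rows, and novel9_mature spans the widest range.

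The members below these differed in how far they varied. novel13_mature had 2705, 1637 and 2734 counts and novel26_mature 1173, 1864 and 1865, a 3.77-fold and a 2.26-fold range as shares of the counts outside the largest row. novel9_mature had 2912, 84 and 183 counts, which is 2.16%, 0.0309% and 0.152% of the counts outside the largest row, a 69.8-fold range. novel185_mature followed the same order with 1125, 132 and 153 counts, a 17.1-fold range. These rows stood high in replicate 1 alone. In contrast novel32_mature, with 333, 165 and 807 counts, and novel19_mature, with 313, 122 and 667, were highest in replicate 3 and lowest in replicate 2. Among the other rows of the first 16 were novel143_mature (567, 520 and 785 counts), novel138_mature (687, 640 and 373) and novel170_mature (363, 568 and 543). As shares of the counts outside the largest row these 3 rows were lowest in replicate 2 as well.

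Among the 22 tail members with mean counts of at least 100, novel452_mature was the steadiest as a share of the counts outside the largest row. Its 350, 593 and 245 counts were 0.259%, 0.218% and 0.203% of those counts, a CV of 12.7%. novel281_mature, with 316, 860 and 278 counts, had a CV of 18.6%. novel22_mature, with 181, 266 and 98 counts, had 25.8%. novel258_mature, with 198, 341 and 295 counts, had 37.0%, and the joined row novel23_mature>novel31_mature, with 207, 191 and 177, had 37.4%. For the first 3 of these, counts rose and fell with the counts outside the largest row. The least steady were novel9_mature (CV 153%), novel185_mature (128%), novel32_mature (95.9%), novel19_mature (93.01%) and novel61_mature (73.7%, with 56, 120 and 166 counts). The order depends on the scale. In the deposited TPM novel452_mature had a CV of 45.7%, and novel23_mature>novel31_mature was the steadiest of the 22 rows with 5.22% (15.8, 15.2 and 14.2 TPM). novel9_mature (150%) and novel185_mature (119%) had the highest CVs of the 22 in TPM as well.

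The smaller members did not follow the depth of replicate 2. The 49 members after the first 5, a split made after the values were seen, summed to 13590, 9824 and 11389 counts. Of these, novel9_mature held 2912, 84 and 183 counts and novel185_mature 1125, 132 and 153. The ratio of replicate 2 to replicate 1 given below leans on these rows, and replicate 2 has the lowest sum only with them included. The named rows summed to 70490, 161240 and 61156, and the 4 leading tail rows to 46725, 97803 and 44624. So replicate 2 held 2.29 times the named counts of replicate 1 and 2.64 times those of replicate 3, but 0.723 and 0.863 times their counts in the smaller members. The 449 unnamed rows below the minimum moved the same way, with 4274, 2932 and 3252 counts. Replicate 2 also had the fewest unnamed rows with any count, 208 against 238 and 242, and the most named rows, 183 against 174 and 181.

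**Figure D4:**
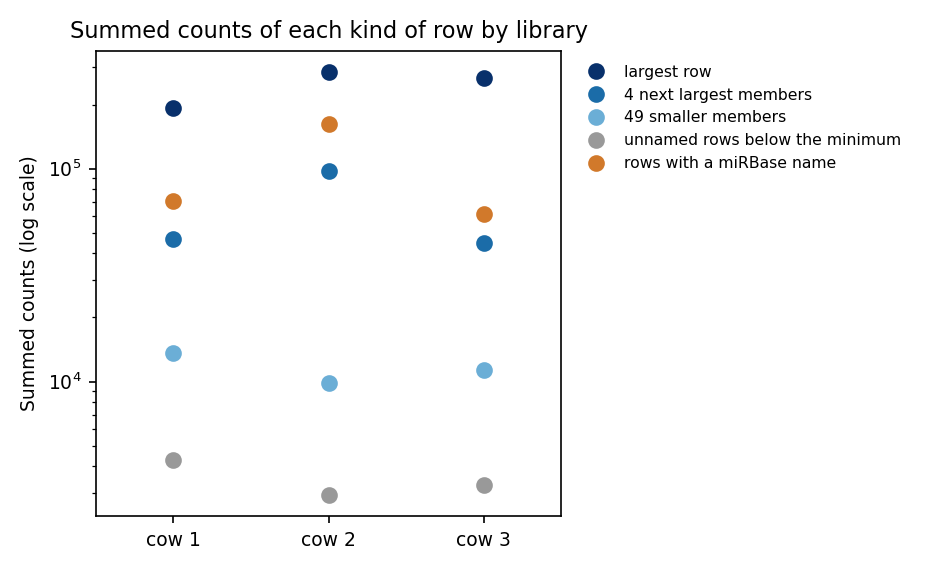
Summed counts (log scale) of 5 kinds of row in each cow library. Named rows and the 4 next largest members are highest in replicate 2, while the 49 smaller members and the unnamed rows below the minimum are lowest there. The sum of the smaller members in replicate 1 includes novel9_mature and novel185_mature, which are high in that library alone.

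Row by row, 43 of the 53 tail members had their lowest share of the counts outside the largest row in replicate 2, against 35 of the 97 named rows that passed the same minimum and 52.0% of both kinds of row together. Replicate 2 was the highest library for 5 tail members and 36 named rows. The count of tail members lowest in replicate 2 depended on the scaling. It was 45 per count of named rows, 35 with edgeR's TMM factors, 31 as a share of all counts and 29 with DESeq2 size factors. On these scales, in that order, 37, 22, 17 and 21 of the 97 named rows were lowest there. As raw counts or TPM 23 tail members were, against 6 of the named rows in each case. The members share libraries and totals, so these counts are a description. The tissue markers moved in both directions with replicate 2. As shares of all counts, 9 of the 27 markers were lowest there and 12 highest, and as shares of the counts of named rows, which were themselves highest in replicate 2, 11 were lowest and 7 highest. On that second scale the leukocyte markers took 1.55%, 2.31% and 2.19%, the red cell markers 9.23%, 5.28% and 17.5% and the liver marker miR-122 0.472%, 0.110% and 0.404%. The miRNAs listed for mammary epithelium, not all of them particular to it, took 28.02%, 29.4% and 25.2%, or 10.2%, 9.08% and 10.1% without miR-26a. The stromal and vascular markers took 1.51%, 1.012% and 1.70%, and the muscle markers were at 0 in replicate 2. The part of these cell types in the counts of the members was not tested.

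Spread between the libraries was larger for the tail than for the named rows on some scales and smaller on another. As shares of the counts outside the largest row, the median CV was 53.7% over the 53 tail members (12.5% to 153%) and 39.2% over the 97 named rows (7.75% to 109%). Of the tail members 42 (79.2%) varied by more than 2-fold, 15 (28.3%) by more than 5-fold and 6 by more than 10-fold. Of the named rows 59 (60.8%) varied by more than 2-fold, 7 (7.22%) by more than 5-fold and 1 by more than 10-fold. Over both kinds of row together the shares past these ranges were 67.3%, 14.7% and 4.67%. The CV was above that of counting error alone in 52 of the 53 tail members, all but novel304_mature (38, 65 and 37 counts). The same held for 96 of the 97 named rows, so this does not set the tail apart.

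Mean counts differed between the kinds of row, with a median of 73.7 in the tail and 255 in the named rows, so rows of like abundance were also set side by side. Between 100 and 1000 mean counts the median CV was 53.6% over 15 members and 38.8% over 51 named rows. Between 10 and 100 it was 56.0% over 31 members and 46.9% over 29 named rows. Between 1000 and 10000 it was 49.5% over 4 members and 31.2% over 15 named rows. On the scale used for these ranges, shares of the counts outside the largest row, the members were the more variable in each. The ranges were not compared on other scales. A common dispersion fitted with edgeR gave a biological CV of 69.1% in the tail and 47.4% in the named rows, or 64.05% and 49.3% with TMM factors.

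In the deposited TPM the order turned, with a median CV of 39.5% in the tail and 59.0% in the named rows. As shares of all counts the medians were 49.6% and 49.6%, and with TMM factors 48.4% and 44.2%. Without replicate 2 the medians of the same rows were 34.4% and 26.2% as shares of the counts outside the largest row and 31.4% and 28.3% in TPM, so the difference between kinds of row was smaller on the first scale and turned on the second. Across the tail members, log2 counts correlated between libraries with Pearson's r of 0.876 (replicates 1 and 2), 0.905 (1 and 3) and 0.888 (2 and 3). Across the named rows these were 0.921, 0.902 and 0.886. Ranks separated the kinds of row more, with Spearman's rho of 0.777, 0.811 and 0.748 in the tail and 0.920, 0.903 and 0.880 in the named rows. These correlations run across rows of shared libraries, and the few very abundant rows carry much of r.

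**Figure D5:**
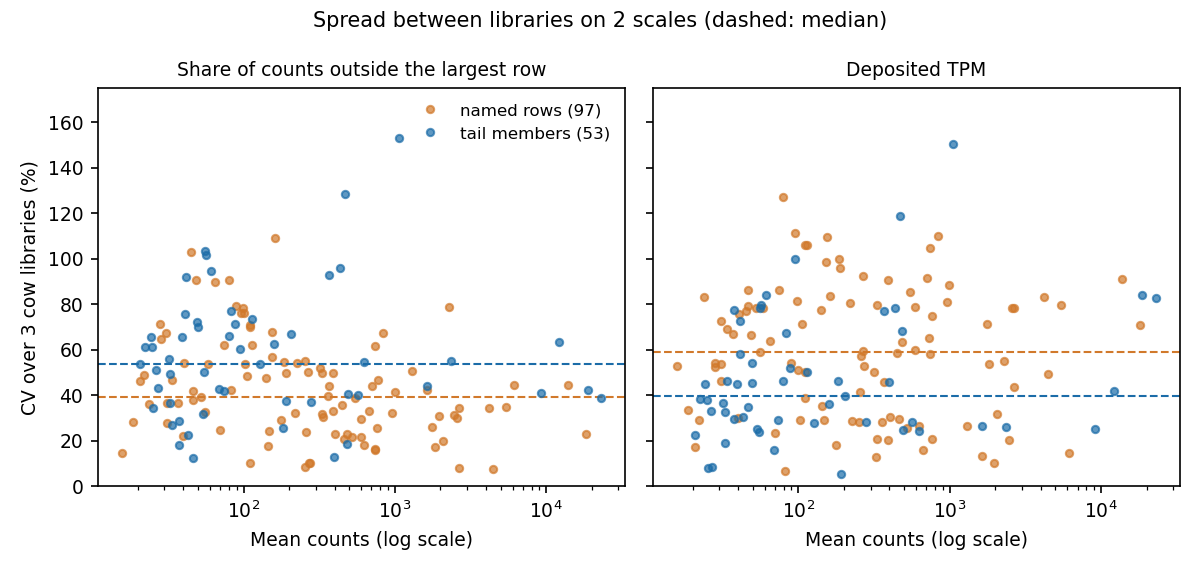
CV over the 3 cow libraries (%) against mean counts (log scale) for the 53 tail members and the 97 named rows that pass the minimum, on 2 scales, with dashed lines at the medians. The tail median lies above the named median as a share of the counts outside the largest row (53.7% and 39.2%) and below it in TPM (39.5% and 59.0%).

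All 54 members were mature rows. The cow table listed 18 star rows among its 503 unnamed rows (3.58%), and none reached 10 counts in every library. Star rows took 38, 48 and 43 counts, or 0.0116% (95% Wilson interval 0.00843 to 0.0159), 0.00863% (0.00651 to 0.0114) and 0.0111% (0.00823 to 0.0149) of replicates 1, 2 and 3. Of the 18, 8 had no count in any library and 6 reached 10 counts in some library. Among the members 50 had no star row in the table, the largest row and the 4 rows that lead the tail included. For those the strand balance that marks a processed hairpin cannot be read from these files.

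The 4 members with a star row had more mature than star counts in every library. This follows in part from the choice of rows, which asks for at least 10 mature counts in every library. novel23_mature>novel31_mature had 207, 191 and 177 counts against 0, 0 and 0 for novel31_star, at least 192-fold more over the 3 libraries against a floor of 3 counts over the group. That row also counts the hairpin novel23. novel330_mature had 45, 31 and 20 counts against 0 in each, at least 32-fold more. novel387_mature had 51, 88 and 82 counts against 12, 0 and 6, and the star strand made up 7.53% of the pair (95% Wilson interval 4.82 to 11.6). novel70_mature had 38, 36 and 74 counts against 11, 0 and 0, a star share of 6.92% (3.91 to 12.0). For both of the last rows the star counts lay mainly in replicate 1, where the star strand was closest to the mature one. The median over the 4 hairpins of log2((mature + 0.5)/(star + 0.5)) was 5.50, and 4.28, 6.83 and 6.29 in replicates 1, 2 and 3. Where the star count is 0 this ratio depends on the 0.5 added. Over all 18 pairs, members or not, the median was 1.42. That value lies at novel146 and novel4, each with 9 mature counts in 1 library and no star count. It is therefore set by the 0.5 added.

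Outside the members, mature and star strands of a hairpin often did not occur in the same library. Exceptions were novel2_star, with 11, 1 and 2 counts, and novel3_star, with 0, 3 and 0. Their mature row, novel2_mature>novel3_mature>novel38_mature, had 67, 4 and 46 counts and missed the minimum in replicate 2. The star sum exceeded the mature sum in 5 of the 18 pairs, and in none of them in all 3 libraries. In novel290, novel502 and novel95, named after their values were seen, the star strand was counted in 1 library and the mature strand in another. The star counts were 36, 18 and 16 and the mature counts 17, 10 and 5, so these sums are small.

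Joining of hairpins was about as frequent among members as among unnamed rows in general. Of the 503 unnamed rows 40 (7.95%) joined several hairpins, 35 of them a pair, 3 a set of 3 and 2 a set of 4, and 5 of the 54 members did. The minimum was passed by 5 of the 40 joined rows (12.5%) and by 49 of the 463 single rows (10.6%). Since the largest row is a joined row, joined rows held most of the member counts, but in the tail they held 0.613%, 0.251% and 0.428%, or 0.431% ± 0.181 (SD, n = 3). Without replicate 2 the rows then passing the minimum gave 0.736%. The 4 joined tail members were novel23_mature>novel31_mature, novel28_mature>novel194_mature (106, 50 and 14 counts), novel158_mature>novel197_mature (36, 13 and 24) and novel107_mature>novel188_mature (21, 16 and 25). Each joined 2 hairpins, and none of the 5 rows that join 3 or 4 passed. Reads of a joined row cannot be divided between its hairpins, so how much of the largest row came from novel237 and how much from novel503 is not known.

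The running number of a row went with its counts, a feature that the choice of rows did not use. Taking the lowest number of a joined row, 23 of 95 rows numbered up to 100 were members (24.2%). The share was 16.5% from 101 to 200, 7.78% from 201 to 300, 6.25% from 301 to 400 and 2.29% from 401 to 541. Rows with no count in any library made up 7.37%, 14.3%, 24.4%, 36.5% and 24.4% of these ranges. The numbers of the largest row, 237 and 503, fall outside the ranges where members were most frequent. No source used here says what the numbers rank.

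Most unnamed rows lay far below the minimum. Of the 503, 109 (21.7%) had no count in any of the 3 cow libraries, 215 were counted in 1 library, 64 in 2 and 115 in all 3. Among the 276 named rows 33 (12.0%) had no count in any library, and 97 (35.1%) passed the minimum against 10.7% of the unnamed rows. The 449 unnamed rows that did not pass held 10458 counts, or 1.07% of all unnamed counts, and 46 of them reached 10 counts in 2 libraries. Just inside the minimum were novel50_mature (59, 12 and 113 counts), novel158_mature>novel197_mature (36, 13 and 24) and novel12_mature (33, 14 and 28). Just outside were novel17_mature (938, 35 and 9), novel37_mature (9, 216 and 90) and novel201_mature (130, 9 and 23). Some rows outside had larger sums than most members, and novel403_mature (422, 8 and 436), novel101_mature (609, 235 and 4) and novel166_mature (0, 0 and 616) were named after their values were seen.

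The unnamed rows of the sheep table, a catalogue built separately, were taken with the same minimum. There 162 of 601 unnamed rows passed the same minimum, and 21 of 112 star rows did, against 0 of 18 in cow. The minimum was a fixed count, and the sheep libraries were deeper. For example, 92850 counts were 8.36% of sheep replicate 1. Unnamed rows with no count in any library numbered 0 in the sheep table and 109 in the cow table. Passing rows were not compared at equal depth. The largest unnamed row took 76.2%, 72.6% and 82.7% of the passing unnamed counts in cow and 14.8%, 31.1% and 21.6% in sheep. That is a difference of 54.7 percentage points without overlap of the groups (exact two-sided permutation test over 3 against 3 libraries, p = 0.1, adjusted p = 0.1 over 3 comparisons). Passing unnamed rows together held 77.0% ± 6.45 of the cow counts and 37.8% ± 17.6 of the sheep counts (SD, n = 3, exact permutation p = 0.1, adjusted p = 0.1). The sheep table had 84 named rows against 276 in cow, and the part of naming in this difference was not tested. Outside the largest row, star rows held 0% of the passing unnamed counts in cow and 6.999% ± 1.29 in sheep (SD, n = 3, exact permutation p = 0.1, adjusted p = 0.1). The cow value was fixed at 0 in every library because no cow star row passed the minimum. With no minimum the cow minus sheep difference was -6.97 percentage points. The smallest p that 3 against 3 allows is 0.1, so none of the 3 comparisons could pass 0.05. The rows were also chosen by the same counts, so the differences are given as a description.

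The sheep table lists sequences, and those of 4 of its largest unnamed rows are shown here as examples of rows without a name. They were not chosen at random and do not stand for the other unnamed sheep rows. They are written as DNA, 5′ to 3′, with the seed (bases 2 to 8, which pair with target messenger RNAs) in capitals. The running numbers of the sheep and cow tables are separate, so sheep novel9_mature is not the cow row of that label. Sheep novel89_mature>novel257_mature took 7.72%, 0.0741% and 0.0705% of the counts of sheep replicates 1, 2 and 3. Sheep novel7_mature took 7.02%, 0.184% and 0.570%, so both were large in replicate 1 only.
sheep novel1_mature: tGAGGGGCagagagcgagacttt
sheep novel89_mature>novel257_mature: tCCTGTACtgagctgccccgagg
sheep novel7_mature: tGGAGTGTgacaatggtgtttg
sheep novel9_mature: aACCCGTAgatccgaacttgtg

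These sheep rows carry the letters of the conserved miR-423-5p, miR-486, miR-122 and miR-100, in that order. The cow table has named rows for all 4, with means of 1.02% of counts for miR-423-5p and 1.51% for miR-486. miR-122 was at 0.0657% and miR-100 at 0.0955%. Each of these 4 miRNAs thus has a named row in the cow table. The identity of the cow members, the largest row included, was not tested, since no cow sequence was used here.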

How the data were processed

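Small RNA libraries of milk EVs, 3 from Holstein cows and 3 from Ordos fine wool sheep, were deposited as 1 table per species. The authors deposited raw read counts per miRNA row. The deposited TPM is the count over a constant of its library, with no term for length. The submitters' processing notes name cutadapt 1.14 and Bowtie. The sources used here do not give the genome build, the counting tool or the program that proposed unnamed hairpins. No cow library held the same values as another. Shares used the library total (328527 to 556489 counts in cow) or the total without the largest row. TMM factors and common dispersions came from edgeR 4.0.16, size factors from DESeq2 1.42.0, on rows with at least 10 counts in each cow library. The dispersion step was tested on simulated counts. Shares in cow and sheep were tested by exact permutation (two-sided), with Benjamini-Hochberg adjustment over 3 comparisons. The rows and lists were chosen with earlier results of these data known. The text names the 16 largest members, leading joined rows and strand pairs, extremes of CV at mean counts of at least 100, and rows next to the minimum. Alternatives were other minimums, denominators, scalings and pseudocounts, a replicate block, and each library left out. Another large unnamed sheep row is not reported here.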

Additional observations from a re-analysis of the deposited data

How the results depend on the processing

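The number of members was 25 with a minimum of 50 counts and 231 with 10 counts summed over the libraries, and ran from 62 to 79 with 1 library left out. Scaled to the smallest total it was 49, and to the smallest total outside the largest row 45, both added after the data were examined. The member share of counts was 43.6% outside the largest row, which that choice removes from both sides, and 74.2% to 80.7% with 1 library left out. The largest row took 77.2% of member counts, and 55.02% to 63.9% of all counts with 1 library left out. The share of the 10 largest tail rows was 88.3% with no minimum and 89.7% to 93.6% with 1 library left out. The log2 mature to star median was 2.90 with a pseudocount of 5, 1.42 over all 18 pairs and 5.21 to 6.19 with 1 library left out. No value exists for pairs with both strands at the minimum, as there are none. Joined rows took 0.756% of the tail with no minimum and 0.406% to 0.736% with 1 library left out, the highest without replicate 2. The median CV of the tail was 173% with no minimum, where many rows are counted in 1 library only, and 31.2% to 60.2% with 1 library left out, each time over the rows then passing, the lowest without replicate 2. Tail members lowest in replicate 2 numbered 23 as raw counts or TPM. With the replicate number as a block (exact sign-flip test over 3 pairs, whose smallest p is 0.25), the cow minus sheep differences stayed 54.7, 39.3 and -6.999 percentage points with p = 0.25 each. Same-numbered cow and sheep libraries did not deviate together over 42 shared names (r from -0.32 to -0.01). Libraries of unlike number ranged from -0.36 to 0.37, so these values cannot decide whether the numbers pair them. With 1 library left out the differences ran from 51.04 to 59.01, from 31.0 to 48.3 and from -7.59 to -6.29. Of 81 alternative values 67 stayed within the spread between libraries, within 1.5 times of a count or on the same side of the threshold. The cow against sheep differences could not leave that side, since their smallest p is 0.1, or 0.25 with the block. Shares in the deposited TPM equal those of counts by construction. The tally therefore overstates how much was tested. Depth limits the members under 100 mean counts most, where counting error alone gives a CV above 10%.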
